A study of Mus musculus with 12 samples.

Results

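Pituitary glands of mice that had lacked dietary vitamin D early in life were compared with those of mice on a normal diet, across all measured genes. The comparison uses 8 of the study's 12 samples, 4 labelled VD-deficient diet during early life (early life 1 to 4) and 4 labelled normal diet (control 1 to 4). All were adult female C57BL/6J mice, an inbred strain, aged 2 months, and no group carried a transgene or mutation. The other 4 mice had the deficient diet during the peripubertal stage. They enter the fit for its estimate of spread and are shown beside some values. The study's design calls the 4 mice of each group biological replicates. Agilent 2-colour arrays of 60-base probes were hybridised with 2 animals of 1 group each, the odd-numbered animal in Cy3 and the even-numbered in Cy5. A gene was described when its probe was a non-control probe well above local background in at least 4 of the 12 scanned channels, and 18383 of the 19086 genes kept by this rule had the values needed for the comparison.

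The anterior pituitary makes growth hormone, prolactin, ACTH, thyrotropin and the gonadotropins, and its output is set by hypothalamic factors and by feedback from glucocorticoids, estrogen and thyroid hormone. Vitamin D acts after conversion to its active form, which binds the vitamin D receptor Vdr, a nuclear receptor that pairs with retinoid X receptors on DNA. Cyp24a1, the enzyme that breaks the active form down, is among its best known target genes. The question of the comparison is whether deficiency confined to early life leaves a difference in the transcripts of the adult gland.

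Several features of the data bear on every value. The 2 control arrays shared a slide and a scan, and the 2 early life arrays shared another, so an effect of the slide and one of the diet cannot be told apart here. The peripubertal arrays shared the slide of the early life arrays. In the deposited value table, all 4 columns titled early life equal, within 1e-06, scanner channels filed as peripubertal, and the reverse holds for the other 4. Group names here follow the scanner files, and with the names exchanged a comparison with control has other results, some of which are given below and in the closing section. The table's control columns match under 0.05% of the values of any scanner channel. Spots well above background made up 50.6% to 59.7% in early life and 61.0% to 66.3% in control samples, and outlier marks removed 6.54% to 7.34% of spots on early life arrays against 1.68% to 1.90% on control arrays. A mark on either dye removes the spot for both animals of an array, so some genes rest on 2 early life mice. Across 14380 genes with all values, deviations from the mean of the 12 samples correlated at 0.61 between early life 1 and 2 and at 0.44 between early life 3 and 4, against -0.07 to 0.34 across these arrays. Control 3 correlated at -0.165 and -0.13 with controls 1 and 2 and at 0.16 with its array-mate control 4, and at -0.06 to 0.23 with the early life samples. These are descriptions across genes, which are not independent replicates.

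The tissue label fits the high signal of Gh, Prl, Pomc and Cga. In the samples that measured them, Gh (growth hormone) ranked 1 to 2 in brightness, Prl (prolactin) 1 to 66, Pomc (the ACTH precursor) 2 to 164 and Cga (the shared glycoprotein hormone chain) 10 to 95 among all genes. Neither these nor Tshb and Lhb, the thyrotropin and luteinizing hormone chains, passed the test (adjusted p from 0.673 to 1.0). Fshb, the follitropin chain, had no early life value because of outlier marks. In the same ranking Tshb stood lower, at 636 to 1922, Fshb at 625 to 2045 in 4 samples and Lhb at 1308 to 5283. Gh and Cga had early life values in early life 3 and 4 only. All values below are normalised log2 intensities, on which a difference of 1 is a doubling, and an adjusted p under 0.05 over all genes is called passing. In bulk tissue, fewer cells of a type and less RNA per cell cannot be told apart.

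Few genes passed. In early life deficiency 11 genes rose and 12 fell, which is 0.125% of the 18383 tested (0.0598% rose and 0.0653% fell). Of these 23, 13 carry a current gene symbol and the others are predicted genes or unnamed transcripts. Without adjustment, 3179 genes (17.3%) had a p under 0.05, 1711 (9.31%) with higher and 1468 (7.99%) with lower early life values. The groups did not overlap in 1464 genes (7.96%) with higher and 1313 (7.14%) with lower early life values, and in none of the 23 that passed did they overlap. A typical standard error of a log2 difference was 0.18. The passing genes were mostly dim: 8 of the 11 that rose had no control sample well above background, and 5 of the 12 that fell had no early life sample well above it. Well above it in all 12 channels were 7 of the 23, where among all genes 14211 were. For 6 of the 23, early life is represented by 2 mice.

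Among the genes that rose, Nox4, an NADPH oxidase that releases hydrogen peroxide, had 9.22, 8.47, 8.95 and 8.43 in early life 1 to 4, against 6.64, 6.48, 6.44 and 6.42 in controls 1 to 4. The groups were far apart, at least 3.75-fold (log2 difference 2.27, SE 0.18, adjusted p = 0.000375), and the bound is used because no control was well above background. Here and below, such a bound is taken from group means and does not allow for the sampling error that the SE describes. Trmo, which methylates a transfer RNA base, had 9.55, 8.75, 10.56 and 10.01 in early life mice, against 6.87 to 6.97 in control mice, at least 6.65-fold (log2 difference 2.79, SE 0.30, adjusted p = 0.00479). Both genes have other probes on the array. The first 30 of the 60 bases of each probe are shown, because the genes were read by several probes of different signal, with the probe that stands for the gene first. Positions are those of build mm9 in the scanner files.
Nox4 probe, chr7:94547113-94547172: cacacatatagaagacagcttcatttcttt
Nox4 second probe, chr7:94472458-94487478: tgccccagtgtatcagcattagaaaaccac
Nox4 further probe, chr7:94547025-94547084: ccttgcctaatctaaactccagtgcatgtt
Trmo probe, chr4:46389847-46389906: tgaagctaagactgctcttcacatcgtcag
Trmo second probe, chr4:46392736-46392795: ttacttatattcttttttaatcctatggat
The second Nox4 probe averaged 6.78 in early life, against 6.86 in control, and the other averaged 6.97 in early life, against 7.07 in control; both were too dim to be kept. The second Trmo probe was kept and averaged 7.44 in early life, against 7.60 in control. In control the probe that stands for Trmo was the dimmer of the 2, at 6.93. The brightest probe was chosen by its mean over all 12 samples, so the high early life values entered that choice. Probes as dim as the other Nox4 probes give no level. The other probe of Ulbp1, a stress ligand that natural killer cells recognise, was well above background in 0 of 12 channels and averaged 6.42 in early life, against 6.43 in control, while the probe that stood for the gene had 8.75, 8.10, 9.13 and 8.70 in early life, against 6.86 to 6.93 in control (at least 3.26-fold, adjusted p = 0.00479).

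The other named genes that rose were Bpifb9b, of the BPI fold family of lipid-binding secreted proteins, and 2 sensory receptors. Bpifb9b had 9.46, 8.39, 9.49 and 8.46 in early life, against 6.55 to 6.72 in control (at least 4.15-fold, adjusted p = 0.00564). The odorant receptor Olfr1219 had 9.38, 8.58, 9.54 and 8.99 in early life, against 7.09, 6.90, 6.72 and 6.69 in control (log2 difference 2.27, SE 0.19, adjusted p = 0.000574). The vomeronasal receptor Vmn1r211 had 8.79, 7.97, 8.10 and 7.51 in early life, against 6.34 to 6.53 in control (at least 2.32-fold, adjusted p = 0.0244). In all 6 named genes that rose, every early life sample lay above every control sample, which the rule for naming passing genes required. The peripubertal samples, on the same slide as early life, averaged 6.90 for Trmo, 6.74 for Bpifb9b, 6.77 for Olfr1219, 6.59 for Nox4, 6.74 for Ulbp1 and 6.54 for Vmn1r211, and early life minus peripubertal had an adjusted p from 0.000384 to 0.0336. Trmo, Bpifb9b, Nox4, Ulbp1 and Vmn1r211 were well above background in the 4 early life channels only, so they met the filter only through the group in which they are high. Both comparisons use the same early life values, and the second is no independent support. With exchanged names Nox4 stood at 0.09, Bpifb9b at 0.12 and Vmn1r211 at 0.08, none passing.

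Some of the spots of passing genes lay close together on the glass. Of the 23 genes that passed, 7 had their spot in rows 302 to 308 of the 532 rows, which hold 1.29% of the genes tested, and 5 in rows 390 to 393, which hold 0.794%. These bands were picked after the positions were seen. Nox4 and Olfr1219 touch each other, in rows 66 and 67 of column 11. Dim spots within 2 rows and columns, taken against their own median over the 6 arrays, stood at 0.46 and 0.63 around Nox4 on the 2 early life arrays, against -0.05 and -0.09 on the control arrays. Around Trmo they stood at 0.60 and 0.39, against 0.01 and 0.02, and around Olfr1219 at 0.32 and 0.73, against -0.06 and -0.09. Around Bpifb9b they stood at 0.25 and 0.50, against -0.10 and -0.02. When spots whose dim neighbours deviated by over 0.3 were left out, Nox4, Olfr1219 and Adam4 had no estimate, and the remaining Trmo probe gave -0.42 (SE 0.20, adjusted p = 0.305). In the same setting Bpifb9b passed on early life 1 and 2 alone (adjusted p = 0.0254), and Ulbp1 (adjusted p = 0.00661) and Vmn1r211 (adjusted p = 0.0400) passed, while Olfr1535 (adjusted p = 0.0769) and Il23a (adjusted p = 0.0595) did not. At a limit of 0.2 Bpifb9b and Ulbp1 had no estimate either, and Vmn1r211, then on early life 1 and 2 alone, had an adjusted p of 0.0495.

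**Figure D1:**
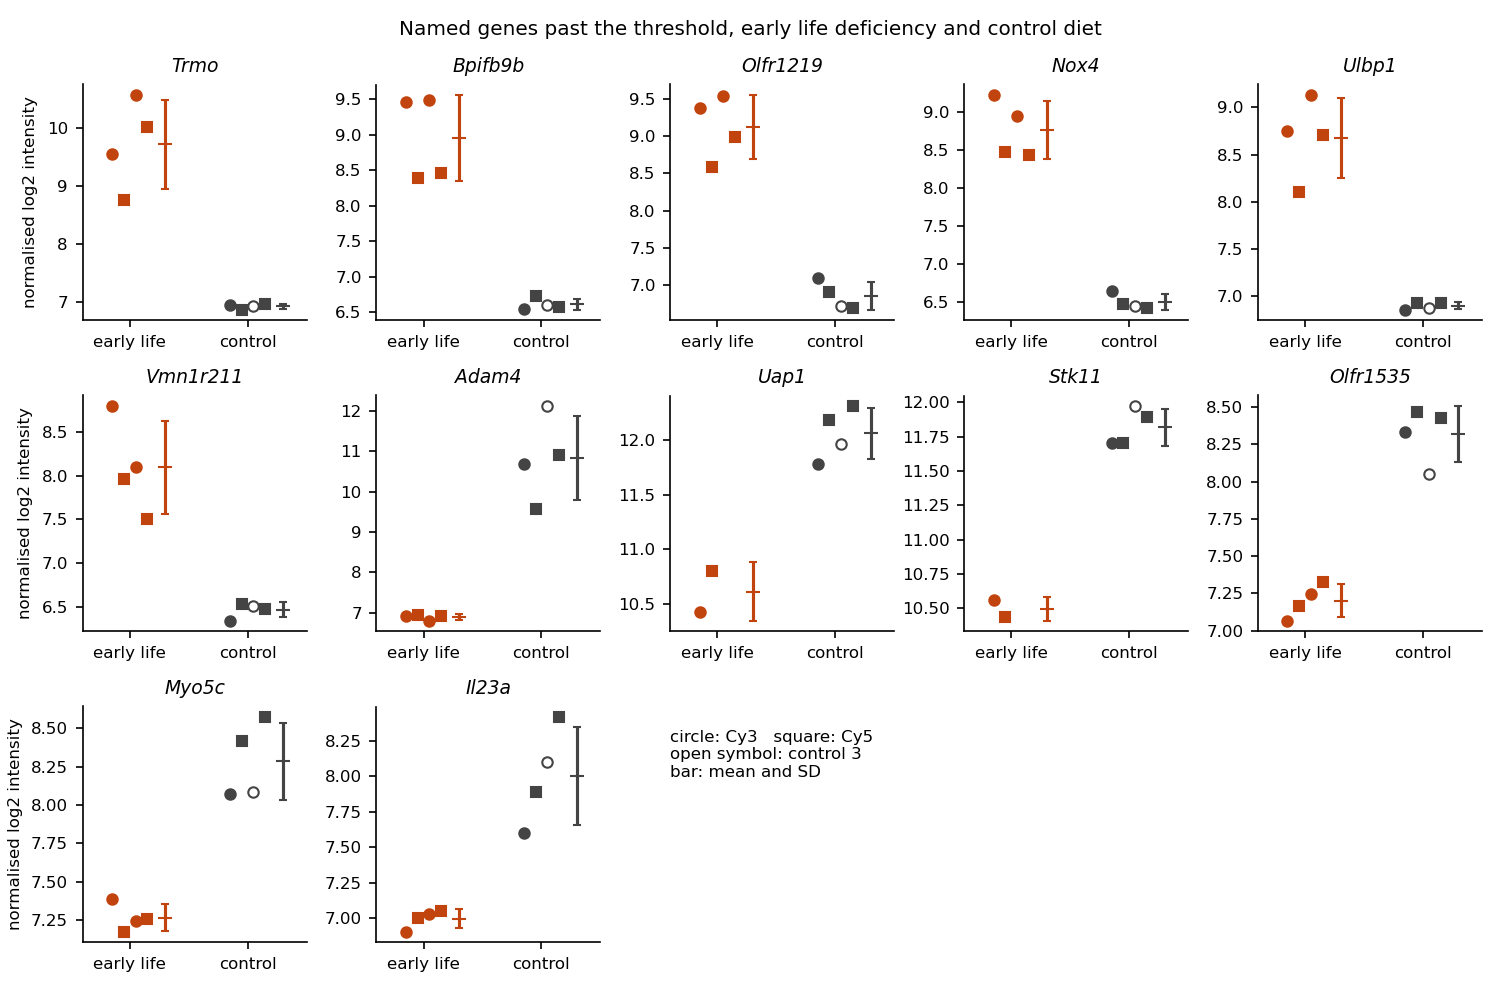
Normalised log2 intensity of 12 of the named genes that passed, with 1 point per mouse (circle Cy3, square Cy5, open symbol control 3) and bars for mean and SD, early life left and control right. The groups do not overlap in any of the 12, which the rule for naming them required, and Uap1 and Stk11 have 2 early life points.

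Among the genes that fell, Adam4, of the ADAM family of membrane-anchored proteases known from germ cells, had 6.90, 6.94, 6.80 and 6.92 in early life, against 10.70, 9.58, 12.12 and 10.91 in control. No early life sample was well above background, and the gene was at least 11-fold lower (log2 difference -3.93, SE 0.58, adjusted p = 0.0282). Dim spots around Adam4 stood at 0.93 and 0.98 on the control arrays, against 0.06 and -0.06 on the early life arrays. The passing transcript with the largest fall (-4.15), which has no gene symbol, had its spot diagonally next to that of Adam4. The spots lie in row 237, column 83 and in row 236, column 82. That transcript had 11.05, 10.05, 12.02 and 10.83 in control, against 6.79 to 6.89 in early life. Dim spots around it stood at 1.26 and 1.54 on the control arrays. A local cause of both signals was not tested. Peripubertal samples 1 and 2 had 6.78 and 6.75, near early life, and 3 and 4 had 8.77 and 8.64.

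Among the brighter genes that fell, Uap1 and Stk11 rest on early life 1 and 2 alone. Uap1, which makes UDP-N-acetylglucosamine for glycosylation, had 10.43 and 10.80 in these mice, against 11.78, 12.18, 11.96 and 12.30 in control (log2 difference -1.44, SE 0.16, adjusted p = 0.0295). Stk11, the kinase LKB1 that activates AMP-activated kinase, had 10.56 and 10.44 in early life, against 11.70 to 11.97 in control (-1.32, SE 0.16, adjusted p = 0.0498). With outlier-marked spots kept, so that early life 3 and 4 entered, neither of these genes passed. Of 31 alternative settings, Uap1 passed in 16 and Stk11 in 9. Myo5c, an unconventional myosin of secretory epithelia, had 7.17 to 7.39 in early life, against 8.07 to 8.57 in control (at least 1.84-fold lower, adjusted p = 0.0270). Il23a, a subunit of interleukin 23, had 6.91 to 7.05 in early life, against 7.60 to 8.42 in control (at least 1.56-fold lower, adjusted p = 0.0498). Myo5c and Il23a too were lost with outlier-marked spots kept, and Il23a passed in 9 of 31 alternative settings and in no fit without 1 of the peripubertal samples. The odorant receptor Olfr1535 had 7.07 to 7.33 in early life, against 8.05 to 8.47 in control (-1.12, SE 0.16, adjusted p = 0.0218). For Myo5c and Il23a peripubertal samples averaged 8.09 and 7.92, near the control levels, and early life passed against them too (adjusted p = 0.0459 and 0.0450). For Olfr1535 and Adam4 early life did not pass against peripubertal (adjusted p = 0.333 and 0.417).

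The genes next in order missed the threshold, at adjusted p of 0.0511 to 0.0514. With early life values above control were Cd79a, part of the B cell receptor (log2 difference 1.41), Armcx6 (0.96), Rgs12, an inhibitor of G protein signalling (0.88), and the membrane-binding myosin Myo1e (0.78). With early life values below control were Rpf1, a ribosome assembly factor measured in 2 early life mice (-1.24), Zfyve9, which brings Smad proteins to the TGF-beta receptor on endosomes (-1.002), and Plet1, an epithelial surface protein (-0.90). Cd79a had 8.90, 8.83, 9.89 and 9.85 in early life, against 7.77 to 8.10 in control, so that early life 3 and 4 stood above early life 1 and 2. Dim spots near Cd79a stood at 0.77 on the array of early life 3 and 4. With patches left out the difference, then on early life 1 and 2 alone, was 0.91 (adjusted p = 0.0674).

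Probes offer a check that animals cannot, since probes of 1 gene share the animal but not the spot. Of 4225 genes with 2 or more kept probes, 135 (3.20%) had an unadjusted p under 0.05 and the same sign in every probe, 57 with higher and 78 with lower early life values. On single probes 17.2% had an unadjusted p under 0.05. Over 4178 pairs of the brightest and another probe of a gene, 58.9% had the same sign and the differences correlated at 0.33, a description across genes whose pairs share the animals. Trmo was the only one of the 23 passing genes with another kept probe. None of the 135 genes named below passed the test over all genes.

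**Figure D2:**
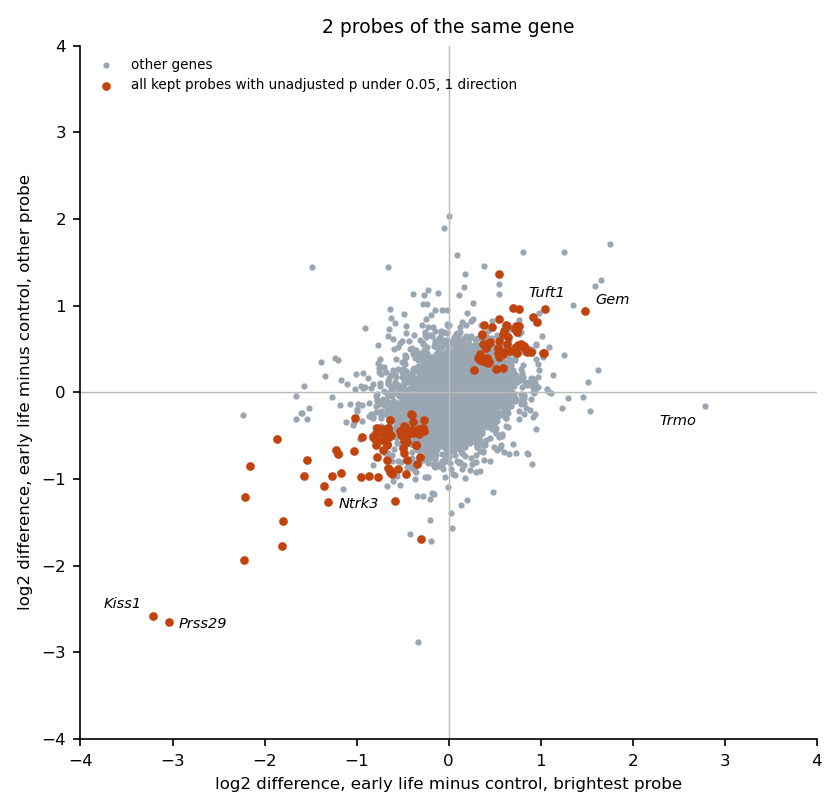
Log2 difference of early life minus control for the brightest probe of a gene (horizontal) and for another kept probe (vertical), 1 point per gene. Points in colour are genes whose kept probes all had an unadjusted p under 0.05 in 1 direction. Kiss1 and Prss29 lie at the lower left with both probes low, and Trmo at the right with its second probe at -0.16.

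The largest differences on which probes agreed were in genes low in early life. Kiss1, the precursor of kisspeptin, a peptide known for stimulating gonadotropin-releasing hormone neurons and also made in the gonadotrophs of rodents, had 8.59, 7.85, 8.43 and 7.43 in early life, against 11.88, 11.54, 9.37 and 12.33 in control. Its probes, shown by their first 30 bases, cover separate stretches of chromosome 1.
Kiss1 probe, chr1:135226240-135226299: gattgtagaggccaaggcagggagcttcta
Kiss1 second probe, chr1:135225955-135226014: actcgttaatgcctgggaaaaggaatcgcg
The first gave a log2 difference of -3.21 (SE 0.71, adjusted p = 0.109) and the second one of -2.58 (SE 0.53). Prss29, a trypsin-like serine protease known from the uterus, had 8.77, 7.66, 7.91 and 7.17 in early life, against 10.76, 12.05, 8.90 and 11.99 in control, with -3.04 (SE 0.80, adjusted p = 0.135) and -2.64 (SE 0.58) on its probes. In both genes the groups did not overlap, and control 3 was the control nearest to early life by over 1 log2 unit.

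Other genes low in early life had the same arrangement. Cacna1g, a low-threshold (T-type) calcium channel, had 8.62, 8.38, 9.87 and 9.27 in early life, against 11.30, 11.09, 9.93 and 11.06 in control (-1.81, SE 0.40, adjusted p = 0.109). Ntrk3, the receptor of neurotrophin 3, had 11.39, 11.38, 11.06 and 10.95 in early life, against 13.18, 12.41, 11.14 and 13.28 in control, and its 4 probes gave -1.26, -1.31, -2.17 and -1.32. Slc18a2, the vesicular monoamine transporter, had 8.64 to 9.08 in early life, against 11.27, 10.66, 8.61 and 10.24 in control (-1.35, SE 0.49, adjusted p = 0.218). Control 3 lay within the early life range for Ntrk3 and below all early life samples for Slc18a2, so these groups overlapped. Hpgd, which degrades prostaglandins, had 7.11 to 7.64 in early life, against 9.82, 9.03, 7.50 and 8.20 in control (-1.27, SE 0.42, adjusted p = 0.195), with control 3 again in the early life range. The ubiquitin ligase Trim16 differed less in this respect, with 7.96, 7.18, 8.24 and 7.52 in early life, against 9.95, 9.25, 9.10 and 9.81 in control (-1.80, SE 0.33, adjusted p = 0.0622). Dim spots near Trim16 stood at 2.18 on the array of controls 3 and 4, near Prss29 at 0.78 on that of early life 3 and 4, and near Kiss1 at 0.33 on that of early life 1 and 2. With such patches left out Kiss1 stood at -3.35, Prss29 at -2.70 and Trim16 at -1.87, none passing. Each then rests on 1 array in 1 group: Kiss1 on early life 3 and 4, Prss29 on early life 1 and 2, and Trim16 on controls 1 and 2.

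In the list of estrogen receptors and estrogen-induced genes, Pgr, Gal and Greb1 showed it as well. Pgr, the progesterone receptor, which estrogen induces in the rodent pituitary, had 7.31, 7.83, 8.32 and 7.77 in early life, against 9.92, 10.08, 8.63 and 10.08 in control (-1.87, SE 0.35, adjusted p = 0.0713), and its 3 probes ran from -1.87 to -0.54. Dim spots near Pgr stood at 0.65 on the array of early life 1 and 2, and with patches left out the difference was -1.63 (adjusted p = 0.125). Gal, galanin, an estrogen-induced peptide of the rodent lactotroph, had 14.59, 12.72, 14.66 and 13.30 in early life, against 17.57, 16.81, 14.26 and 17.43 in control (-2.70, SE 0.90, adjusted p = 0.195). Greb1, an estrogen receptor cofactor known from human breast cancer cells, had 11.28 to 12.49 in early life, against 12.94, 13.11, 12.04 and 13.09 in control (-0.81, SE 0.36, adjusted p = 0.281). Control 3 was the lowest control in all 3 genes and lay inside the early life range for Gal and Greb1. The list as a whole did not lean that way: 6 of 11 members had higher and 5 had lower early life values, with a median of 0.09, and 0 passed. The labels give no stage of the estrous cycle.

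Against the peripubertal mice, measured on the same slide as early life, the same genes differed by as much. Early life minus peripubertal was -3.67 for Kiss1 (adjusted p = 0.0560), -3.15 for Prss29 (adjusted p = 0.0976), -3.14 for Gal (adjusted p = 0.115), -2.17 for Cacna1g (adjusted p = 0.0505) and -1.85 for Slc18a2 (adjusted p = 0.101). It passed for Pgr at -2.08 (adjusted p = 0.0432) and Trim16 at -1.99 (adjusted p = 0.0410). The peripubertal samples were close together, for Kiss1 from 11.32 to 12.34 and for Pgr from 9.62 to 10.17. Both comparisons use the early life samples, and 65 of 18238 genes (0.356%) passed in this one. Early life and peripubertal arrays lay on 1 slide.

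**Figure D3:**
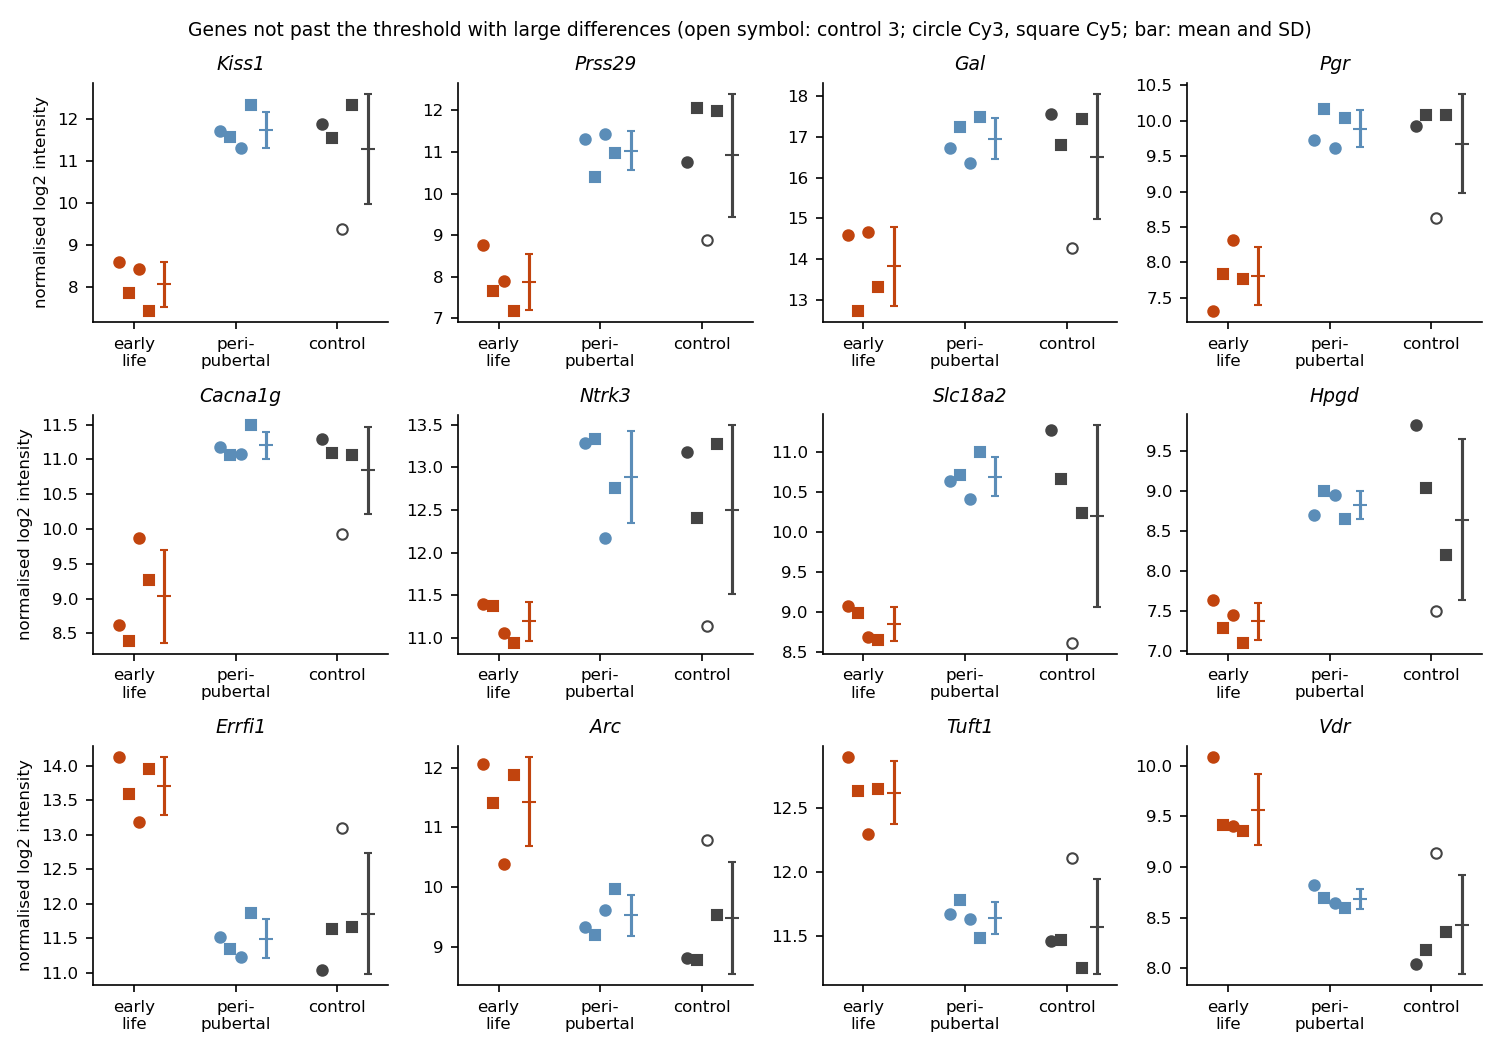
Normalised log2 intensity of 12 genes with large differences that did not pass, chosen after their values were seen, with 1 point per mouse and bars for mean and SD, for early life (left), peripubertal (middle) and control (right). Control 3, the open symbol, lies nearest to early life among the controls in each panel.

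Left out of the fit, control 3 changed many calls. The number of genes that passed became 265 (104 that rose and 161 that fell) in place of 23, all 23 among them. Kiss1 then passed at -3.94 (adjusted p = 0.00700), Pgr at -2.18 (adjusted p = 0.00995), Prss29 at -3.83 and Cacna1g at -2.14 (adjusted p = 0.0162 each), and Gal at -3.56 (adjusted p = 0.0336). The labels give nothing that sets this animal apart, and leaving it out was one of 12 such fits. Leaving out early life 3 likewise gave 521 genes, and leaving out control 4 gave 6. Control 3 was the control nearest to the early life mean in 5620 of 15321 genes with 8 values (36.7%), and in 75 of the 115 such genes whose probes agreed (65.2%). With the names of the deficient groups exchanged, Kiss1 stood at 0.46, Pgr at 0.21, Gal at 0.44 and Cacna1g at 0.36, none passing.

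On the higher side, the largest differences on which probes agreed included those of Tuft1, Gem and Ranbp9. Tuft1, known from tooth enamel, had 12.90, 12.63, 12.30 and 12.65 in early life, against 11.46, 11.47, 12.11 and 11.25 in control (1.05, SE 0.23, adjusted p = 0.108). Gem, a small GTPase that inhibits calcium channels, had 11.98, 11.57, 10.87 and 11.67 in early life, against 8.86, 9.68, 10.97 and 10.64 in control (1.48, SE 0.45, adjusted p = 0.169). Ranbp9, a scaffold protein, had 12.83 to 13.02 in early life, against 12.01 to 12.54 in control (0.73, SE 0.18, adjusted p = 0.127). Control 3 was again the highest control for each of these. Rgs4, an inhibitor of G protein signalling (0.77), Tox, a transcription factor (0.76), and Tiparp, an ADP-ribosyltransferase of the aryl hydrocarbon receptor pathway (0.70), had smaller differences (adjusted p from 0.152 to 0.217).

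Fitted on their own, the genes well above background in every channel gave 0 calls of 14226 with limma, and 2516 of them had an unadjusted p under 0.05. In the fit of all genes, those next in order among genes measured in this way were the following. The transcription factor Creb5 had 13.90, 14.44, 14.15 and 14.80 in early life, against 15.01 to 15.34 in control (-0.89, SE 0.15, adjusted p = 0.0514). Vopp1, an endosomal membrane protein, had 12.44 to 12.83 in early life, against 13.27 to 13.40 in control (-0.70, SE 0.13, adjusted p = 0.0600). Tor1a, the ATPase torsin A, had 12.43 to 12.59 in early life, against 12.91 to 13.20 in control (-0.55, SE 0.10, adjusted p = 0.0671). Smap2, an Arf GTPase activator of vesicle traffic, had 11.38 to 11.56 in early life, against 10.79 to 11.03 in control (0.63, SE 0.11, adjusted p = 0.0628). The groups did not overlap in these genes.

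Vdr had 10.09, 9.41, 9.41 and 9.36 in early life, against 8.04, 8.18, 9.13 and 8.36 in control. All early life mice lay above all controls, the nearest being control 3, but the difference did not pass (1.14, SE 0.25, adjusted p = 0.108). Without control 3 it was 1.32 (adjusted p = 0.0210), with exchanged names it was 0.26 (adjusted p = 0.999), and it passed in 4 of 32 alternative settings. Among 39 listed genes of vitamin D action and metabolism 30 were measured, of which 22 had higher and 8 lower early life values, with a median of 0.21, and 0 passed. An unadjusted p under 0.05 was found for 7 with higher and 3 with lower values, where all genes had it in 9.31% and 7.99%. Over all genes 53.5% had higher early life values and the median was 0.03. Cd14, the lipopolysaccharide co-receptor and a vitamin D target in human cells, had 11.54, 11.50, 11.17 and 11.06 in early life, against 9.27, 10.33, 10.86 and 9.69 in control (1.28, SE 0.38, adjusted p = 0.165). Tph2, a serotonin synthesis enzyme, had 6.93 to 7.09 in early life, against 7.38 to 8.25 in control (-0.84, SE 0.22, adjusted p = 0.135). The only Cyp24a1 probe was well above background in 0 of 12 channels and averaged 6.88 in early life, against 6.77 in control, so no level is given. In calcium handling 17 of 26 members had higher early life values (median 0.17), among them Atp2a2, the calcium pump of the endoplasmic reticulum, at 0.86 (SE 0.19, adjusted p = 0.108) on its brightest probe but at -0.71 on its other kept probe, with dim spots near it at 0.45 on the array of early life 3 and 4. With exchanged names the median of the vitamin D list was 0.02 and that of calcium handling 0.05.

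The lists of hormone-cell markers showed small shifts, with medians of 0.09 for somatotroph, 0.12 for lactotroph, 0.07 for gonadotroph, 0.02 for thyrotroph and 0.14 for corticotroph and melanotroph genes, and 0 passing. In activin and inhibin signalling, which controls follitropin, 16 of 25 members had higher early life values (median 0.27) and 0 passed. The members of smallest p were low: Zfyve9 had 7.74, 8.01, 7.49 and 7.73 in early life, against 8.98, 8.71, 8.70 and 8.59 in control, and Tgif2, a repressor of TGF-beta targets, had 7.48 to 7.87 in early life, against 8.25 to 8.69 in control (-0.81, SE 0.17, adjusted p = 0.0875). Peripubertal samples averaged 7.43 for Zfyve9 and 7.56 for Tgif2, close to early life, and early life minus peripubertal was 0.315 and 0.125 (adjusted p = 0.30 and 0.696). For these genes both deficient groups, which share a slide, lay below control.

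Immediate early genes, which cells transcribe within minutes of a stimulus, mostly had higher early life values. Of 32 members 28 did, with a median of 0.57, the largest median among the 42 lists, and 0 passed. Arc, of neuronal plasticity, had 12.06, 11.41, 10.39 and 11.87 in early life, against 8.81, 8.79, 10.78 and 9.53 in control (1.95, SE 0.54, adjusted p = 0.146). Maff, a small Maf transcription factor, had 11.61, 11.31, 10.30 and 11.02 in early life, against 8.25, 10.07, 10.25 and 9.24 in control (1.61, SE 0.50, adjusted p = 0.178). Zfp36, which destabilises cytokine messages, stood at 0.80 (SE 0.25, adjusted p = 0.177). Ier5 stood at 1.53 (SE 0.58), with 10.52 and 9.74 in early life 3 and 4 but 7.53 and 7.72 in early life 1 and 2, against 6.89 to 7.57 in control. Its other kept probe gave -0.22. With patches left out, where the probe that stands for a gene is chosen anew, Ier5 stood at -0.09. That value may come from the other probe, so the 2 are not separate checks. The mean deviation of the list was 0.84, 0.46, 0.12 and 0.69 in early life 1 to 4, against -0.74, -0.09, 0.25 and -0.21 in controls 1 to 4, so control 3 lay above early life 3. With exchanged names the list median was -0.00.

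Glucocorticoid-responsive genes had the next largest median, 0.56, with 14 of 15 members higher in early life values and 0 passing. Errfi1, an inhibitor of EGF receptor signalling, had 14.12, 13.59, 13.18 and 13.95 in early life, against 11.03, 11.63, 13.10 and 11.65 in control (1.86, SE 0.47, adjusted p = 0.128). Klf9, a transcription factor, had 12.89 to 14.02 in early life, against 11.48 to 12.66 in control (1.32, SE 0.37, adjusted p = 0.146). Sgk1, a kinase of sodium transport, had 12.56, 12.39, 11.39 and 12.37 in early life, against 10.85, 11.11, 11.62 and 10.44 in control (1.17, SE 0.40, adjusted p = 0.208). Their mean deviation was 0.27, 0.56, 0.16 and 0.59 in early life, against -0.93, 0.18, 0.59 and -0.72 in control, so the groups overlapped. The median was 0.90 without control 3 and 0.19 with exchanged names. In the circadian clock list 13 of 17 members had higher early life values (median 0.38), among them Arntl, the clock activator BMAL1, with 11.38, 11.31, 10.59 and 11.06 in early life, against 10.25 to 10.46 in control (0.74, SE 0.20, adjusted p = 0.157). The labels give no hour of dissection.

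**Figure D4:**
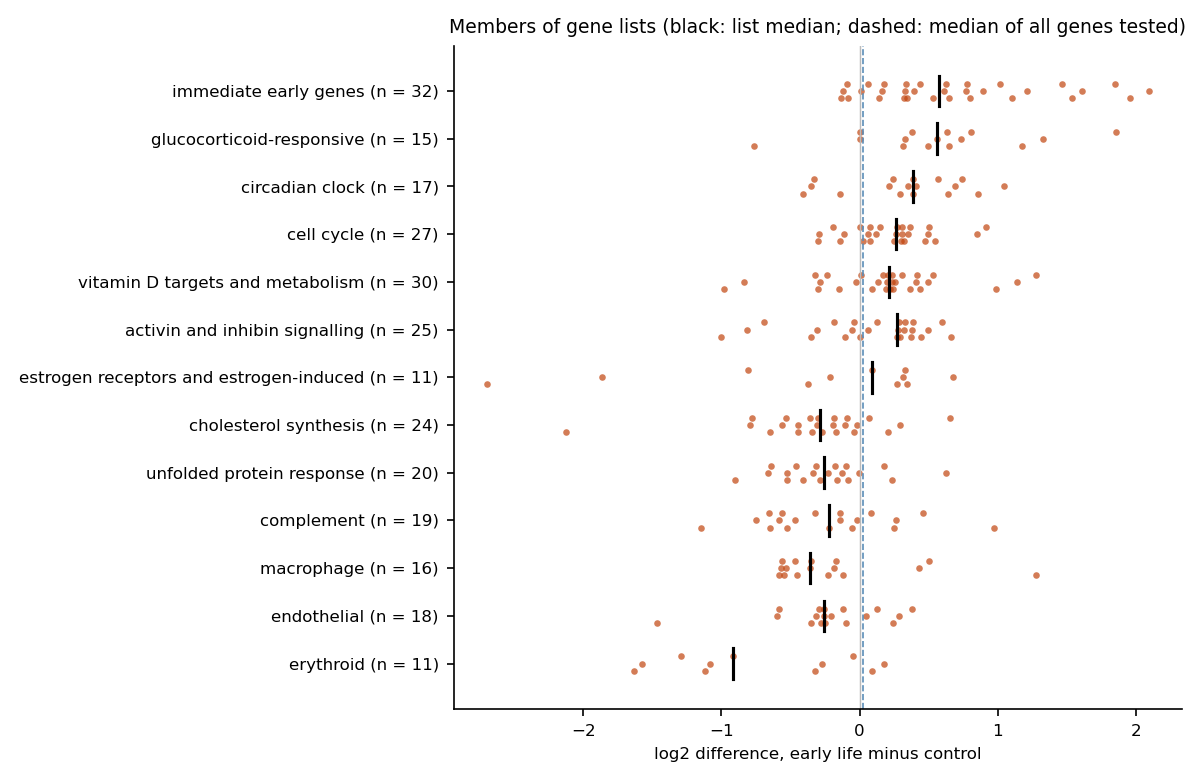
Log2 difference of early life minus control for the measured members of 13 gene lists, 1 point per gene, with the list median in black and the median of all genes tested (0.03) dashed. Immediate early and glucocorticoid-responsive genes lie mostly above 0, and cholesterol synthesis and erythroid genes mostly below it.

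Cholesterol synthesis genes mostly had lower early life values, 20 of 24 members with a median of -0.29 and 0 passing. Sc5d, a sterol desaturase of the last steps, had 9.30 to 9.83 in early life, against 10.07 to 10.45 in control (-0.65, SE 0.18, adjusted p = 0.141). Control 3 was the lowest control. In the unfolded protein response 17 of 20 members had lower early life values (median -0.26), a sign that turned with median centring and with exchanged names. Hspa5, the chaperone BiP, stood at -0.53 (SE 0.16, adjusted p = 0.165), while Ddit3, the stress-induced factor CHOP, stood at 0.62 (SE 0.15, adjusted p = 0.128). In the cell cycle list 22 of 27 members had higher early life values (median 0.26), and Ccna2, cyclin A, had 10.04 and 9.61 in early life 1 and 2 but 8.65 and 8.47 in early life 3 and 4, against 8.16 to 8.55 in control (adjusted p = 0.208). Dim spots near Ccna2 stood at 0.67 on the array of early life 1 and 2. With patches left out its difference, then on early life 3 and 4 alone, was 0.28 (adjusted p = 0.488), against 0.91 as reported. With exchanged names the cell cycle median was -0.07, that of the clock list -0.04 and that of cholesterol synthesis -0.0062.

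Markers of other cells in the gland also moved between samples. Erythroid genes had the lowest median, -0.91, with 9 of 11 members lower in early life values and 0 passing. Their mean deviation was -0.13, -0.96, -0.83 and -0.83 in early life, against 0.93, 0.66, -0.85 and -0.55 in control, so the 2 control arrays stood apart and the groups overlapped. Alas2, the first enzyme of heme synthesis in red cells, had 9.67, 8.11, 8.41 and 8.11 in early life, against 11.60, 11.04, 8.95 and 9.23 in control, and the globin Hbb-bs had 9.59 to 10.37 in early life, against 13.38, 12.43, 10.15 and 10.46 in control. Without the array of controls 1 and 2 the erythroid median was above 0. Endothelial genes had a median of -0.25 (13 of 18 lower), and Sox18, an endothelial transcription factor, had 7.52, 8.35, 8.88 and 8.88 in early life, against 9.94, 9.98, 9.32 and 10.26 in control (-1.47, SE 0.33, adjusted p = 0.109). It passed against peripubertal at -1.98 (adjusted p = 0.0410). Medians were -0.355 for macrophage (13 of 16 lower), -0.52 for neutrophil (9 of 11 lower), -0.22 for complement (14 of 19 lower), -0.17 for fibroblast and matrix and -0.17 for lymphocyte genes. They were 0.29 for posterior lobe and pituicyte (10 of 11 higher), 0.22 for stem and folliculostellate (18 of 22 higher) and 0.21 for Schwann and myelin genes (11 of 13 higher). Slc1a3, a glutamate transporter of glia, had 9.28 to 10.33 in early life, against 8.18, 8.21, 9.37 and 9.63 in control (1.085, SE 0.36, adjusted p = 0.195). With exchanged names the medians were 0.77 for erythroid, 0.11 for endothelial, 0.24 for macrophage, 0.26 for neutrophil, 0.215 for complement, 0.15 for fibroblast and matrix, 0.02 for lymphocyte and -0.11 for Schwann and myelin genes, each of the opposite sign. Those of posterior lobe and pituicyte genes (0.05) and of stem and folliculostellate genes (0.09) kept their sign but were smaller. The part of these cell types in the other results was not tested.

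Further lists stood near the median of all genes, with medians from -0.05 to 0.06 for pericyte and smooth muscle, interferon response, MHC, granins, exocytosis, glycolysis, ribosomal protein, oxidative phosphorylation, chromatin, ADAM and myosin genes. Medians were 0.09 for cAMP-linked genes and for the main hormones, 0.17 for oxidases and antioxidant enzymes, -0.16 for tRNA and RNA modification and -0.23 for hexosamine and glycosylation genes. Olfactory, vomeronasal and taste receptors, mostly known from sensory epithelia, had 71 of 158 members with higher early life values, a median of -0.03, and 3 passing, Olfr1219, Vmn1r211 and Olfr1535, where 0.125% of all genes passed. Of these, Olfr1219 had no estimate and Olfr1535 did not pass with patches left out.

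**Figure D5:**
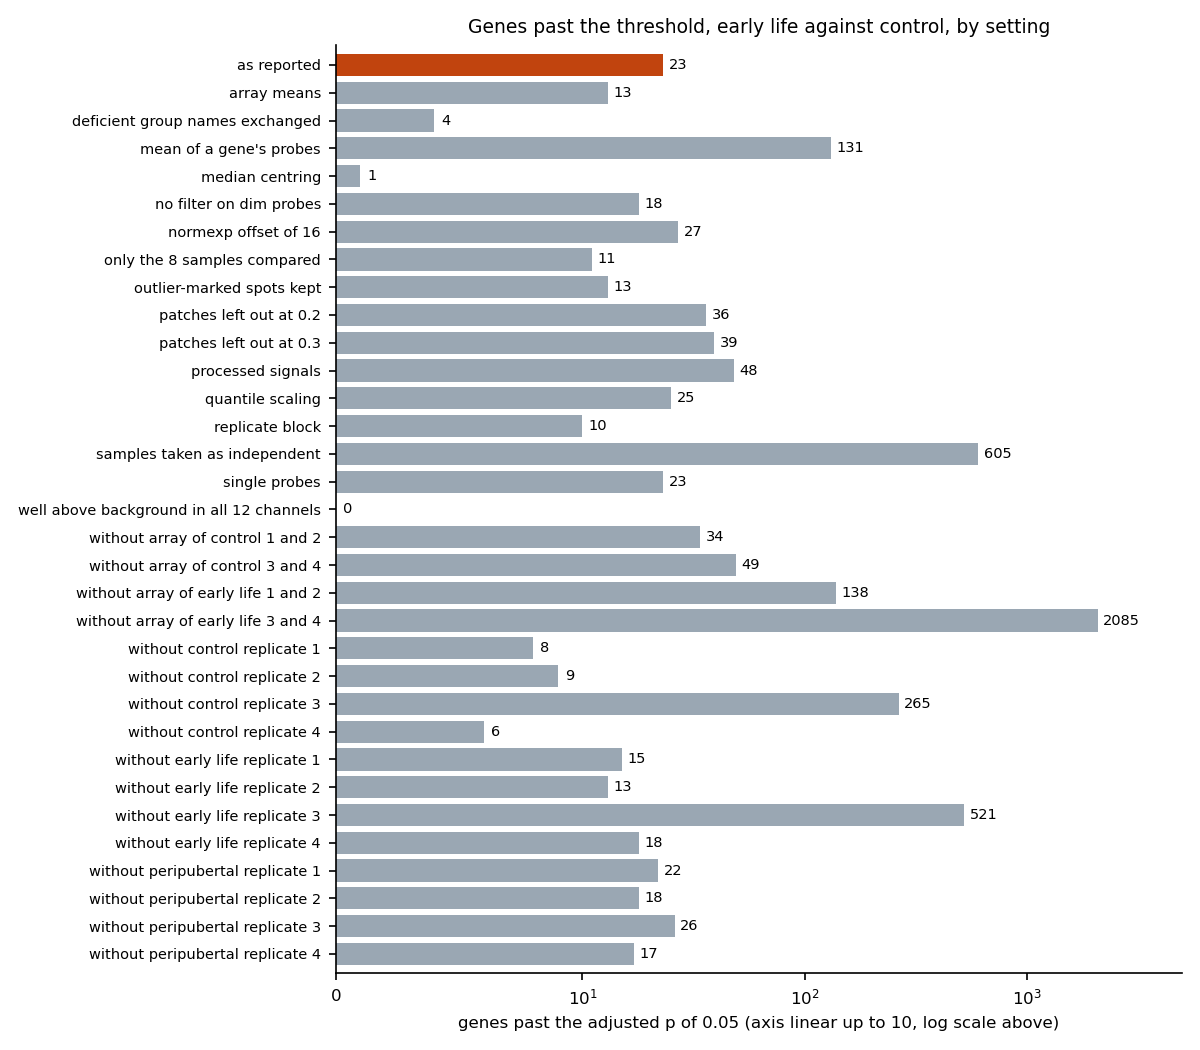
Number of genes past an adjusted p of 0.05 for early life against control in each setting, on an axis that is linear up to 10 and logarithmic above. The reported fit has 23, and the counts run from 0 for genes bright in every channel to 2085 without the array of early life 3 and 4.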

How the data were processed

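Pituitary RNA of 12 mice was measured on 6 Agilent 2-colour arrays. Per the file headers, the deposited scanner files were written by Feature Extraction 11.0.1.1 and give the raw intensity of each spot in both dyes. The deposited value table holds log2 values whose making is not given in the sources used here, and it served only to compare sample names. Per array, intensity was background-corrected (normexp, offset 50) and loess-normalised, with control and outlier-marked spots at weight 0, then scaled between arrays (Aquantile) with limma 3.58.1 in R 4.3.3. Of 39429 probes 24589 were kept, and the one with the highest mean over all 12 samples stood for its gene. limma was fitted with group and dye as terms and array as random block (correlation 0.31), two-sided, with Benjamini-Hochberg adjustment over all genes. Where a whole group was not well above background, the fold is a bound against the dimmest such signal of each channel. The bound allows for the detection limit only, not for sampling error. The number of arrays limits the precision. On simulated data for this comparison (18383 genes) 70% of changes of 1 and 96% of changes of 2 (log2) were recovered, with 8 false calls among 174. The simulation had normal noise with each gene's own spread and 1 array correlation for all genes. It held no slide effect, no patches and no sample that stood apart, so its rates need not hold for the measured data.

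Members and the 42 lists were chosen with earlier results of these data known. Named are genes with a current symbol: the 10 largest passing differences a direction, the next by p up to 10, the 8 a direction on which probes agree most, the 5 of smallest p a direction measured in all channels, Vdr, Cyp24a1 and hormone genes, and the 4 of smallest p of each list described. Passing genes were named only where the groups did not overlap, which held for every passing gene. Alternatives changed the normalization, filter, model and samples. Some named genes are not reported here.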

Additional observations from a re-analysis of the deposited data

Results flagged for a closer look

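In 9 of 117 groups of 4 tested for the genes named in the text, 1 sample stood apart from the other 3 by Dixon's criterion, which about 1 in 20 groups would do by chance. In 3 of the 9 it was control 3 that stood below the other controls: Pgr at 8.63 against 9.92 to 10.08, Greb1 at 12.04 against 12.94 to 13.11, and Sc5d at 10.07 against 10.39 to 10.45. Sc5d was also low in early life 1, at 9.30 against 9.76 to 9.83 in the other early life samples. Vdr was high in early life 1, at 10.09 against 9.36 to 9.41. Early life 3 was low for Smap2, at 11.38 against 11.53 to 11.56, and for Sgk1, at 11.39 against 12.37 to 12.56. Among controls, Myo1e was low in control 1, at 10.47 against 10.68, and Ddit3 in control 4, at 10.13 against 10.58 to 10.64.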

How the results depend on the processing

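In place of 23 calls there were 13 with array means (4 of them among the 23), 11 with only the 8 samples compared, 13 with outlier-marked spots kept, 1 with median centring (which moved the median of all genes to 0.17), 48 with processed signals, 131 with probes averaged per gene, 605 with samples taken as independent, 36 and 39 with patches left out at 0.2 and 0.3 (10 and 14 among the 23), and 0 of 14226 for genes well above background in all 12 channels. There were 49 without the array of controls 3 and 4 (6 among the 23), 138 without that of early life 1 and 2 (14 among the 23), and 2085 without that of early life 3 and 4 (all 23 among them). Leaving out 1 sample gave 6 to 521, and the lowest came without control 4 and the highest without early life 3. With the replicate number as a block (replicate block) 10 passed, 8 of them higher. After group and dye were taken out, same-numbered samples of different groups correlated at -0.285 to 0.0594 across genes. Such values cannot decide whether the numbers pair samples, because differences between arrays enter them too. The share of higher calls was 47.8% as reported, 80.0% with the replicate block and 0.0% with median centring. The cause of these shifts was not tested.

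With the names of the deficient groups exchanged 4 passed, all lower. Signs turned for Trmo (-0.0334), Olfr1219 (-0.0859), Ulbp1 (-0.16), Gem (-0.32), Prss29 (0.11), Kiss1 (0.46), Cacna1g (0.36), Trim16 (0.19), Ntrk3 (0.38), Slc18a2 (0.50), Hpgd (0.18), Ier5 (-0.001), Errfi1 (-0.37), Arntl (-0.0822), Pgr (0.21), Gal (0.44), Greb1 (0.091), Sox18 (0.51), Rpf1 (0.0105), Plet1 (0.0886), Hspa5 (0.12), Alas2 (0.60), Hbb-bs (0.0754), Ccna2 (-0.011) and Tph2 (0.0253). Trmo (-0.42) and Ier5 (-0.0911) turned with patches left out at either limit, and Trmo with processed signals (-0.68). In these settings the probe that stands for a gene is chosen anew. The turned signs can thus be those of another probe and need not be a change in the probe described above. Over 60 named genes, 30 of 933 values turned under processing and model settings, and 0 of 957 under settings that leave out a sample or an array. Most of these genes were named for a small p or a large difference in these data, so few turned signs were to be had. Settings that leave out a sample include those without 1 peripubertal sample, which keep every early life and control value. The 0 is therefore no measure of how firm the signs are. Among list medians 1232 of 1344 stayed within 1 SD between mice of the list's mean deviation. That width can exceed the median itself, so a turned sign can count as staying. Of the 112 that moved, 25 did so with exchanged names and 23 with median centring. The sign turned in 9 of 32 settings for oxidative phosphorylation, in 8 for somatotroph and in 0 for cholesterol synthesis genes. Cholesterol synthesis was not the only list without a turn, and its median was -0.0062 with exchanged names, against -0.29 as reported.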
